A study of Mus musculus with 16 samples.

Results

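Hesx1 and 8 other transcription factor genes that pattern the anterior neural plate (Otx2, Six3, Six6, Rax, Lhx2, Pax6, Vax1 and Fezf1) were followed across cell types, genotypes and stages in chimeric mouse embryos. The 9 genes were taken by name from the 29453 genes of the count matrix. Hesx1 was chosen by its measured null against WT difference in these data, so its values in that contrast are given as a description with no test. Its fall between WT stages and the values of the other 8 genes were tested. The chimeras were made by injecting CD1 embryonic stem cells that lacked Stat3 and carried a tdTomato reporter into WT CD1 blastocysts. Their cells were read by droplet 3' single-cell RNA sequencing after flow sorting into tdTomato+ (Stat3 null, the donor cells) and tdTomato- (WT, the host cells) fractions. Embryonic days (E) 7.5 and 8.5 each gave 2 WT and 2 null libraries, and E9.5 gave 4 of each genotype. In the null line, part of Stat3 is replaced by a neomycin cassette, and the reporter cells were grown from picked colonies. Whether all injected cells came from 1 colony was not given in the sources used here. By the sort gate, null cells stand for donor cells and WT cells for host cells. The paper reports that some null cells entered the WT samples by accident. Donor cells with no detected tdTomato transcript may remain there. No chimera with WT donor cells is among the libraries, so genotype cannot be told apart from donor origin, culture and transfection. Null and WT cells of a pool shared the same embryos, and embryos were pooled at E7.5 and E8.5. The E7.5 pools were made by embryo size, large or small, so the spread between them holds that difference too. The labels give 1 embryo to each E9.5 pool, but the methods name fewer E9.5 embryos than there are pools, so that E9.5 libraries may share an embryo, and the E9.5 spread and p-values may then be too small. The names of the libraries in the cell table could not be tied to the replicate numbers of the labels, so the libraries of each group are called A, B, C and D here, and p-values measure the spread between libraries only.

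The 16 libraries held between 360 and 4327 analysed cells and between 20682659 and 138613245 unique molecular identifiers (UMIs, each standing for 1 captured transcript). Stat3 was present at 1.16 to 2.53 counts per 1000000 UMIs (CPM) over whole null libraries and at 6.14 to 9.31 CPM over WT libraries, with no overlap. Between 72.3% and 98.3% of singlets in null libraries carried a tdTomato UMI, the lowest being E8.5 null B, against 0.104% to 8.47% in WT libraries, the highest being E9.5 WT D. WT cells with such a UMI were left out. E9.5 WT C and WT D shared 375 cell barcodes, against at most 12 for any other pair, but only 10 of the 375 had the same cell type in both, and results that rest on either library were also computed without it.

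HESX1 is a paired-like homeodomain repressor of the earliest anterior neural plate, and mutations in it are known for forebrain, eye and pituitary defects. OTX2 maintains head and forebrain identity, SIX3 restrains WNT signalling at the anterior end of the plate, and RAX, SIX6, LHX2 and PAX6 belong to the eye field network from which the optic vesicle grows. VAX1 patterns the ventral optic stalk, and FEZF1 is a zinc finger repressor of caudal forebrain fate. Hesx1 is normally switched on early in this network and then lost from the neural plate, remaining in Rathke's pouch, the ectodermal source of the anterior pituitary.

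Hesx1 lies on chr14:26994416-27002329 on the forward strand of GRCm38, with a long transcript that starts at the first of these bases and a shorter one that starts at 27000362. The 250 bases before the shorter start, which fall in intron 1 of the long transcript and overlap no annotated exon, are shown because Hesx1 had the largest fall of the 9 genes in WT Optic vesicle. The same window of Vax1, on the reverse strand, is shown because Vax1 was the member called higher there. Both are RefSeq promoters of GRCm38.p6, written 5' to 3'. Capitals mark a match to the palindrome of paired-type homeodomains, TAAT and ATTA set 3 bases apart, which the Vax1 window lacks.
Hesx1, chr14:27000112-27000361: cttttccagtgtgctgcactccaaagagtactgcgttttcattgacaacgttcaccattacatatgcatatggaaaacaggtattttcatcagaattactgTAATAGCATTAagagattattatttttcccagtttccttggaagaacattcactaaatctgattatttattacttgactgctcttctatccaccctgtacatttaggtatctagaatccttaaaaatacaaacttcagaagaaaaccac
Vax1, chr19:59170398-59170647: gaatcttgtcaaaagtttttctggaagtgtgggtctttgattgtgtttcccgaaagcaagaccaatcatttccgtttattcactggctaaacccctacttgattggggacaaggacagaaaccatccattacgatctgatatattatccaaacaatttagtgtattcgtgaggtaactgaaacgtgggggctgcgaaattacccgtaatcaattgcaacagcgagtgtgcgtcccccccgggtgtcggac
The Hesx1 window held 1 match to the palindrome, which starts 149 bases before the transcript start and which 0.463% of 32851 mouse promoters of the same length hold. Its GC content was 34.0%, against a median of 52.4% over all promoters, and it held 2 CG dinucleotides against a median of 6. Neither window held TTCNNNGAA, the letters of a STAT element (in 7.02% of promoters), or TAATCC, the letters of an OTX-type element (in 6.25%), on either strand. Among 13 promoters of 8 members, TTCNNNGAA was found in 1 of the 4 Otx2 promoters, 113 bases before the start, and in no other. These are letter matches in one short window and say nothing of binding.

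The forebrain and eye cells were those mapped by the authors to Ventral forebrain progenitors, Late dorsal forebrain progenitors and Optic vesicle. The labels were checked against forebrain and eye markers that hold none of the 9 genes. In WT cells, 6 of the 9 markers in the matrix lay above the 90th percentile of the other types in E8.5 Optic vesicle, among them Emx2 and Nkx2-1, and 5 did so in E9.5 Optic vesicle. Fgf8, Foxd1 and Mab21l2, the last an eye field and optic vesicle gene, did not do so in Optic vesicle at either stage. Ventral forebrain progenitors had 6 such markers at E8.5 and 5 at E9.5, and E9.5 Late dorsal forebrain progenitors had the fewest, 4. Because the authors assigned cell types from expression across variable genes, a member's own level helped to decide which cells a type holds, and differences between types are descriptions.

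In WT cells the 9 genes shared a forebrain and eye domain from E8.5 but differed in what lay outside it (heat map of WT levels). Hesx1 was the exception in time. At E7.5 its highest WT means were 33.0 ± 1.78 CPM (SD, n = 2) in Gut tube, 28.3 ± 32.5 in Ectoderm and 26.2 ± 5.02 in Visceral endoderm. The order of these 3 could not be told from their spread, and the Ectoderm mean joined 51.3 CPM in WT A with 5.35 CPM in WT B. At E8.5, 1 of 36 WT types exceeded 10 CPM, namely Optic vesicle, and at E9.5 none of 40 did, the highest being Thyroid primordium at 6.85 ± 4.73 CPM (SD, n = 3). Ventral forebrain progenitors at E8.5 were above these levels but fell outside this count, since only 1 of the 2 WT libraries held more than 15 of them.

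**Figure D1:**
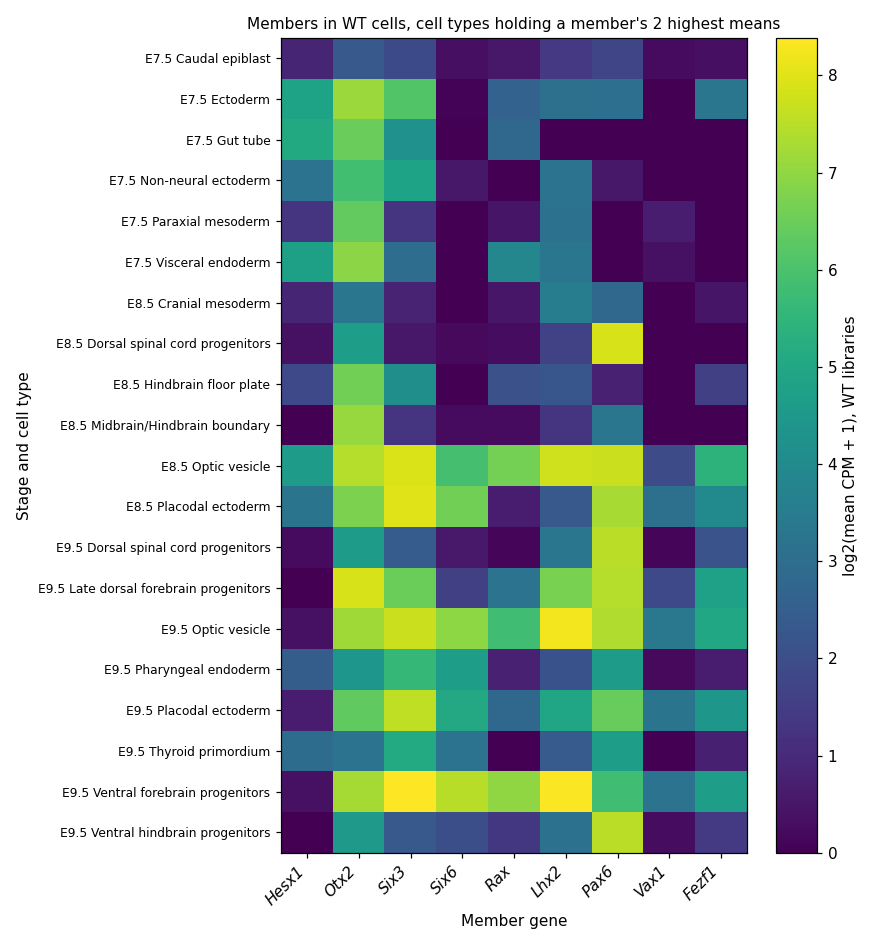
Mean level of each member in WT cells, as log2(mean CPM + 1) by colour, with member genes in columns and the stages and cell types that held a member's 2 highest means in rows (at least 2 WT libraries with more than 15 cells). Hesx1 is bright in E8.5 Optic vesicle and in E7.5 Gut tube, Ectoderm and Visceral endoderm and dark in every E9.5 forebrain and eye row.

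Otx2 was present across the E7.5 anterior tissues (Ectoderm 139.6 ± 58.3 CPM, Visceral endoderm 119.9 ± 0.367, n = 2) and then ran from forebrain into midbrain. Its E9.5 WT order was Late dorsal forebrain progenitors (232 ± 43.5 CPM, SD, n = 4), Ventral forebrain progenitors (153 ± 17.9), Optic vesicle (146 ± 3.81) and Midbrain/Hindbrain boundary (102 ± 40.1), where Ventral forebrain progenitors and Optic vesicle did not differ beyond their spread. Six3 and Six6, members of the sine oculis homeobox family, shared their leading types. At E9.5 both were highest in Ventral forebrain progenitors (Six3 334 ± 101 CPM, Six6 178 ± 97.5), then in Optic vesicle (209 ± 26.7 and 124 ± 46.5), and also marked Placodal ectoderm (192 ± 12.6 and 32.5 ± 19.9, n = 2). Ventral forebrain progenitors and Optic vesicle did not differ beyond their spread for either gene. Six6 was under 1 CPM in all 11 E7.5 WT types, where Six3 already stood at 68.3 ± 47.2 CPM in Ectoderm.

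Rax was the member most confined to the forebrain and eye in UMIs, with 77.1% to 91.9% of all its UMIs in the E9.5 WT libraries coming from these types, which made up 5.65% to 9.88% of the cells. Only Ventral forebrain progenitors (125 ± 19.3 CPM) and Optic vesicle (55.8 ± 15.9) exceeded 10 CPM for it at E9.5. Lhx2 was as high in Optic vesicle (302 ± 17.2 CPM) as in Ventral forebrain progenitors (324 ± 72.9) within their spread and was also found in Epicardium (124 ± 54.8) and Limb mesoderm (85.8 ± 19.5). Pax6, which also patterns the ventricular zone of the hindbrain and spinal cord, was spread over 16 of 40 E9.5 WT types above 10 CPM. Its 5 leading types, headed by Dorsal spinal cord progenitors (183 ± 4.48 CPM) and ending with Optic vesicle, could not be ordered neighbour by neighbour. Vax1 and Fezf1 had low levels, with E9.5 Optic vesicle means of 9.27 ± 3.82 and 31.5 ± 3.46 CPM.

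The largest change among the 9 genes was the loss of Hesx1 from WT forebrain and eye cells between E8.5 and E9.5. In Optic vesicle it stood at 13.0 and 34.9 CPM in the 2 E8.5 WT libraries, and at 0, 0, 0.747 and 0.474 CPM in the 4 E9.5 libraries. No E9.5 library came near an E8.5 library. Pooled, 168 Hesx1 UMIs in 302 cells at E8.5 were followed by 7 UMIs in 634 cells at E9.5, a ratio of CPM of 77.6 (95% exact interval 36.8 to 196, counting error only). The edgeR quasi-likelihood test gave a log2 fold change of -6.30 (SE 0.70, adjusted p = 0.00125). In this comparison 5.29% of 10786 genes were called, which needed an adjusted p under 0.05 together with a log2 change of more than 1 in either direction. The share called lower at E9.5 was 1.84% and the share called higher 3.45%. The Hesx1 call held under each alternative run.

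Ventral forebrain progenitors showed the same fall from a higher level. Hesx1 stood at 120 and 142 CPM in the 10 and 28 cells of the E8.5 WT libraries, where 6 and 21 of the cells held a Hesx1 UMI. At E9.5 the 4 WT libraries gave 0, 0.573, 0 and 0.59 CPM. The 93 UMIs in 38 cells thus became 2 UMIs in 185 cells, a ratio of 337 (95% exact interval 90.8 to 2826). With the cell minimum lowered to 10, an alternative chosen after seeing the data, the log2 fold change was -8.09 (SE 0.43, edgeR adjusted p = 3.70e-12), in a type in which 1.12% of genes were called. Late dorsal forebrain progenitors held no Hesx1 UMI in the 23 WT cells of E8.5 or in the 4 WT libraries of E9.5.

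The other members did not follow Hesx1. In Optic vesicle, Vax1 rose from 2.68 and 2.97 CPM at E8.5 to 11.5, 7.36, 13.3 and 4.90 CPM at E9.5, all 4 above both (log2 fold change 1.49, SE 0.45, edgeR adjusted p = 0.0307). That call was lost when either E8.5 library was left out (log2 fold changes 1.44 and 1.57) and when cells were thinned to equal depth (1.00). Fezf1 fell from 38.5 and 46.2 CPM to 27.3, 30.9, 35.7 and 32.3 CPM, again without overlap (-0.61, SE 0.13, edgeR adjusted p = 0.00202). Otx2 fell from 160 and 190 CPM to between 141 and 149 CPM (-0.44, SE 0.09, adjusted p = 0.000874). These falls passed the adjusted p but not the size threshold.

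Pax6 (-0.52, SE 0.11, edgeR adjusted p = 0.00303) and Lhx2 (0.27, SE 0.08, adjusted p = 0.0223) likewise passed the adjusted p but not the size threshold. Lhx2 rose, from 235 and 208 CPM to between 278 and 318 CPM. The adjusted p of Otx2, Fezf1, Pax6 and Lhx2 each went above 0.05 without E8.5 WT B. Rax stood at 81.3 and 116 CPM at E8.5 and at 79.3, 46.4, 45.9 and 51.5 CPM at E9.5 (-1.02, SE 0.28, edgeR adjusted p = 0.0647). E9.5 WT A alone kept the Rax groups close, and without it the log2 fold change was -1.21 and passed. Six3 (-0.40, adjusted p = 0.134) and Six6 (0.85, adjusted p = 0.256) did not pass. Thus Hesx1 and Vax1 were the 2 of 9 members called. In Ventral forebrain progenitors none of the other 7 members tested with the lowered cell minimum was called, the nearest being Lhx2 (0.82, SE 0.26, edgeR adjusted p = 0.167), although Lhx2 and Six3 had an unadjusted p under 0.05. In Late dorsal forebrain progenitors, where 1.03% of genes were called, none of 5 members was (Lhx2 1.00, edgeR adjusted p = 0.0609), and Lhx2, Fezf1 and Pax6 had an unadjusted p under 0.05.

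**Figure D2:**
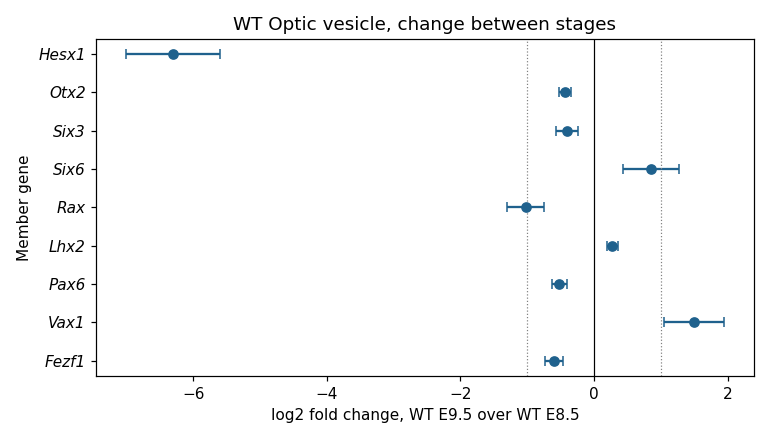
Fitted log2 fold change of each member in WT Optic vesicle, E9.5 over E8.5 (4 and 2 libraries), on the horizontal axis, with bars of ± 1 SE and dotted lines at -1 and 1. Hesx1 lies at -6.30, far left of the other 8 members, and Vax1 at 1.49.

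Other genes of the forebrain and eye programme were read from 8 lists of 82 genes. In the same WT Optic vesicle comparison 53 were tested, with a median log2 fold change of 0.18. Of these, 7 were called higher and 1 lower at E9.5, where 3.45% and 1.84% of all genes were. Of the 8 tested eye field and optic vesicle genes, Vax2, a ventral retina gene, rose by 6.75 (SE 1.17). Aldh1a3, which makes retinoic acid in the retina, rose by 3.54 (SE 0.78). Of the 6 tested hypothalamus and ventral midline genes, Tbx3 rose by 2.28 and Nkx2-1 by 1.75. Of the 13 telencephalon genes, Fgf15 rose by 1.44 and Fezf2, the sister gene of Fezf1, by 1.30, and of the 9 pan-neural genes Zic1 rose by 2.39. Aldh1a3 and Zic1 came nearest to the threshold (edgeR adjusted p = 0.0442 and 0.0403). Pou5f1, the pluripotency factor OCT4, fell by 2.19 on the log2 scale, and no gene of the caudal limit, prechordal signalling or partner lists was called. All 7 erythroid markers were detected in WT Optic vesicle, and their summed level was 716 to 862 CPM at E8.5 and 95.8 to 412 CPM at E9.5. Neural crest and mesenchyme markers summed to 13.0 to 13.7 CPM at E8.5 and 28.5 to 55.0 CPM at E9.5. Endothelial markers summed to 3.35 to 4.05 and 4.74 to 13.1 CPM. Forebrain and eye markers summed to 332 to 424 and 483 to 577 CPM, and the other marker sums overlapped. Their part in these changes was not tested, and stage and day of collection cannot be told apart.

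The chimeras let null cells be compared with WT cells that grew beside them, and the members were compared between the genotypes in cells of the same stage and type. Hesx1 in forebrain and eye cells overlapped between the genotypes. In E8.5 Optic vesicle it was 13.0 and 34.9 CPM in WT and 22.3 and 92.1 CPM in null cells. A Hesx1 UMI was found in 22.8% and 27.1% of WT cells and in 21.2% and 57.1% of null cells. With each cell thinned to 10000 UMIs these shares were 12.0% and 22.9% in WT and 15.9% and 42.9% in null cells. The fitted log2 fold change was 1.04 (SE 1.21), and without null B, the library with 92.1 CPM, it was -0.15. In E8.5 Ventral forebrain progenitors the null libraries lay on either side of WT, at 92.2 and 265 CPM against 120 and 142 CPM.

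By E9.5 Hesx1 was lost from null forebrain and eye cells as well. Null Optic vesicle gave 0.499, 0.221, 0 and 0 CPM, within the range of the WT libraries. Null Ventral forebrain progenitors gave 0.552, 1.84, 1.09 and 1.29 CPM against 0 to 0.59 CPM in WT, from 8 UMIs in 196 null cells and 2 UMIs in 185 WT cells. Each of the values in Ventral forebrain progenitors rests on 3 UMIs or fewer, so no fold is given.

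**Figure D3:**
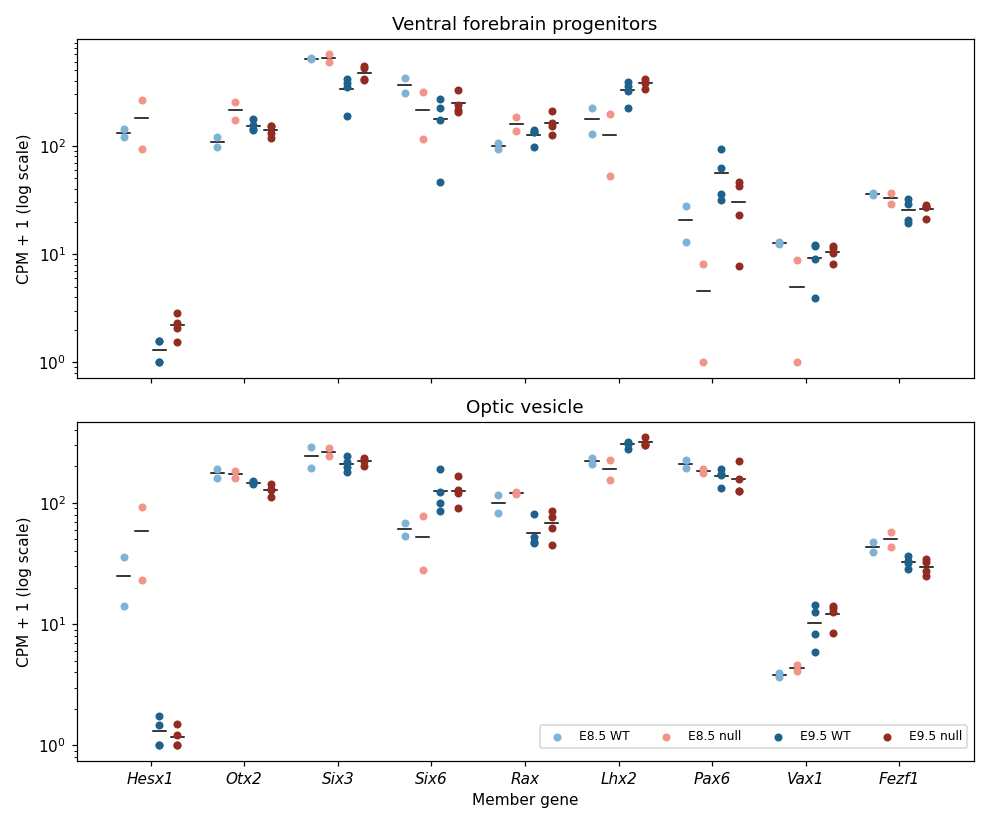
CPM + 1 of each member on a log axis in Ventral forebrain progenitors (top) and Optic vesicle (bottom), 1 point per library with at least 10 cells, coloured by stage and genotype, with a bar at the mean. In both types Hesx1 drops to near 0 CPM at E9.5 in WT and null alike, while the remaining 8 members keep their order of magnitude between genotypes at E9.5.

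None of the other 8 members was called between null and WT cells in any type. They gave 10 tests at E7.5, 35 at E8.5 and 87 at E9.5, and 0 were called at each stage, where 0.186%, 0.0609% and 0.12% of all tests over all genes were called. An unadjusted p under 0.05 was reached by 1, 8 and 16 of these tests, against 4.06%, 4.32% and 6.26% of tests over all genes, so that the members' share lay above that of all genes at each stage, by a single test at E7.5. Of the 16 at E9.5, 14 were in types outside the forebrain and eye, as were all 8 at E8.5. DESeq2 called 0, 0 and 1. Null lay above WT without overlap in 1, 5 and 4 of them and below in 1, 10 and 5, against 12.9%, 14.8% and 4.74% (above) and 18.5%, 18.3% and 4.75% (below) over all genes. Median log2 fold changes were -0.28, -0.03 and 0.00 (within 0.01 of 0 over all genes of each type), and the members' lowest adjusted p was 0.383, 0.352 and 0.0519. The filter on low counts let Pax6 through in 25 of 37 E9.5 types, Otx2 and Lhx2 in 17, Six3 in 13, Six6 in 7, Fezf1 in 4, Rax and Vax1 in 2, and Hesx1 in 1.

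In the forebrain and eye types no member was called between genotypes. At E8.5 Optic vesicle their log2 fold changes ran from -0.17 (Lhx2) to 0.29 (Vax1), with none of 8 at an unadjusted p under 0.05. Six6, at -0.05 with all 4 libraries, was called at -1.11 when null A was left out. At E9.5 they ran from -0.71 (Pax6 in Ventral forebrain progenitors) to 0.54 (Six6 in the same type) over 21 tests. Rax in Ventral forebrain progenitors was 132, 139, 133 and 96.8 CPM in WT and 207, 124, 151 and 162 CPM in null libraries (0.37, SE 0.14, edgeR adjusted p = 0.647). Otx2 in Optic vesicle was 141, 149, 149 and 146 CPM in WT and 126, 111, 130 and 141 CPM in null libraries (-0.19, SE 0.07, adjusted p = 0.621). Null and WT libraries overlapped in both, and these were the only 2 of the 21 at an unadjusted p under 0.05. Six3 in Ventral forebrain progenitors was 415, 350, 382 and 188 CPM in WT and 402, 414, 519 and 543 CPM in null libraries (0.52, SE 0.24, adjusted p = 0.871). In the E8.5 Ventral forebrain progenitors, with the lowered cell minimum, Otx2 was 96.2 and 120 CPM in WT and 171 and 253 CPM in null cells (0.89, SE 0.25, edgeR adjusted p = 0.99994). Rax was 92.2 and 106 CPM in WT and 137 and 182 CPM in null cells there (0.63, SE 0.24, edgeR adjusted p = 0.99994). Null libraries lay above WT without overlap for both genes at an unadjusted p under 0.05, and neither passed. Such a position above WT was taken by 14.8% of all E8.5 tests in types over the cell minimum, and Lhx2, Fezf1, Six6 and Six3, the other members tested here, overlapped. In these cells erythroid markers summed to 738 to 846 CPM in WT and 190 to 671 CPM in null libraries. Forebrain and eye markers summed to 424 to 437 CPM in WT and 477 to 574 CPM in null libraries. Surface ectoderm and yolk sac endoderm sums were also higher in null libraries without overlap, and neural crest and mesenchyme sums lower. The other marker sums overlapped. Their part in the Otx2 and Rax values was not tested.

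**Figure D4:**
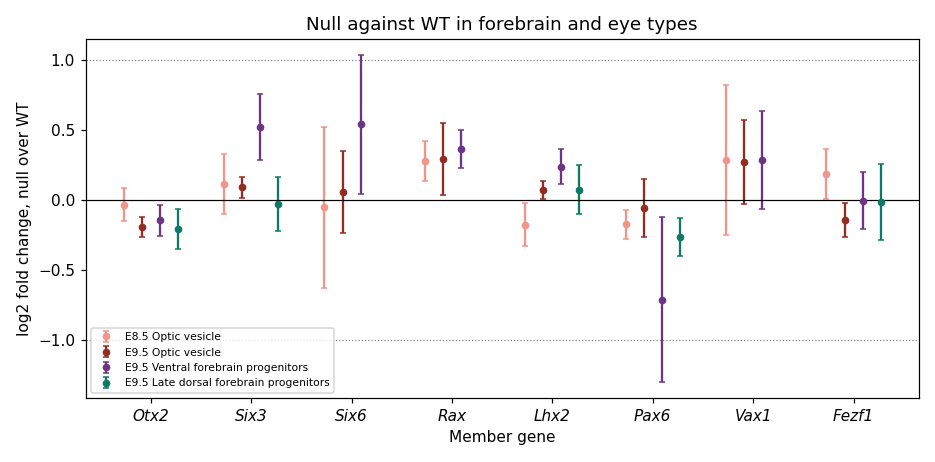
Fitted log2 fold change, null over WT, of the 8 members other than Hesx1 in forebrain and eye types, coloured by stage and type, with bars of ± 1 SE and dotted lines at -1 and 1. All 29 points lie between -0.71 and 0.54, and E8.5 Ventral forebrain progenitors, which were under the cell minimum, are not plotted.

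The null against WT difference of the 8 members in Optic vesicle did not pass a test of change between stages either. The genotype by stage interaction ran from -0.32 (Fezf1, SE 0.22) to 0.25 (Lhx2, SE 0.14), with an edgeR adjusted p of 0.99996 for each and no unadjusted p under 0.05, and 0.00919% of all genes were called. In null against WT forebrain and eye cells 0 of the listed companion genes were called, over 44 tests at E8.5 and 38, 49 and 41 tests in the 3 types at E9.5, where 0.0618% and 0.124% of genes were called. An unadjusted p under 0.05 was reached by 7 of them at E8.5 and by 3, 3 and 4 at E9.5, against 3.87% and 5.33% of all genes tested in these types at the 2 stages, and DESeq2 called 0. Nkx2-4, a hypothalamic homeobox gene related to Nkx2-1, had an adjusted p under 0.05 in E9.5 Ventral forebrain progenitors but not the size (0.79, SE 0.12, edgeR adjusted p = 0.00121).

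Numbers of forebrain and eye cells were also compared. Ventral forebrain progenitors made up 0.395% and 0.741% of E8.5 WT cells and 1.60% and 0.982% of null cells (log2 fold change 1.19, SE 0.51, edgeR adjusted p = 0.962). Optic vesicle averaged 4.59% of WT and 4.48% of null cells at E8.5 (log2 fold change -0.06). At E9.5 it averaged 5.67% of WT and 4.91% of null cells (-0.22). By edgeR no forebrain or eye type passed at either stage or reached an unadjusted p under 0.05, where 0% of 68 and 1.41% of 71 types were called. Summed erythroid markers in Optic vesicle were lower in null libraries at E9.5 (1.98 to 23.6 CPM) than in WT libraries (95.8 to 412 CPM). At E8.5 they were 204 to 683 CPM in null and 716 to 862 CPM in WT Optic vesicle. In E9.5 Ventral forebrain progenitors they were 4.30 to 25.1 CPM in null and 163 to 485 CPM in WT libraries. In E9.5 Late dorsal forebrain progenitors they were 2.68 to 22.9 and 89.7 to 1298 CPM. The part of erythroid markers in the small differences above was not tested.

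Hesx1 also differed between null and WT Erythroid cells. In E8.5 Erythroid cells Hesx1 was 0.264 and 0.734 CPM in WT A and WT B, and 9.19 and 5.76 CPM in null A and null B. The null libraries lay above both WT libraries, as 17.4% of the genes tested in this type did (0.0197% were called higher). A Hesx1 UMI was found in 5 of 426 and 8 of 622 WT cells (1.17% and 1.29%). Among null cells with a tdTomato UMI it was found in 117 of 414 (28.3%) and 14 of 49 (28.6%). Thinned to 10000 UMIs a cell, the shares over all cells of the type were 0.469% and 0.482% in WT and 9.09% and 3.82% in null libraries. Median depth per cell was 42665 and 25352.5 UMIs in WT A and WT B, and 41878 and 42125 UMIs in tdTomato+ cells of null A and null B. The fitted log2 fold change was 3.98 (SE 0.46) and is a description, since it chose the gene.

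The make-up of the members' UMIs in these cells was read as well. Hesx1 supplied 79.0% and 80.6% of the UMIs of all 9 members in null Erythroid cells, against 6.17% and 8.11% in WT Erythroid cells. In the forebrain and eye cells of the same libraries it supplied 1.96% to 9.74%. These Erythroid shares reuse the Hesx1 values that chose the gene, so they are a description and no further evidence. The null shares rest on 226 and 29 Hesx1 UMIs, and the exact interval of the null B share ran from 63.98% to 91.81%. The other members that passed the filter were lower in null Erythroid cells, with Otx2 at 1.27 and 1.90 CPM in WT and 0.488 and 0.398 CPM in null cells (-1.72, SE 0.48, edgeR adjusted p = 0.352). Six3 (-1.48, adjusted p = 0.574) and Pax6 (-1.497, adjusted p = 0.616) also lay lower in both null libraries, and none of the 3 passed. Such a position below WT was taken by 18.3% of all E8.5 tests. The members other than Hesx1 together held 76 and 136 UMIs in WT and 60 and 7 UMIs in null Erythroid cells. Summed forebrain and eye markers in Erythroid cells were 4.96 to 8.56 CPM in WT and 2.19 to 2.56 CPM in null libraries. Neural crest and mesenchyme markers fell likewise, from 10.2 to 11.7 CPM in WT to 1.19 to 3.94 CPM in null libraries. Midbrain, hindbrain and surface ectoderm sums were also lower in null libraries without overlap. Yolk sac endoderm, endothelial and erythroid sums overlapped. The fall was thus not limited to forebrain and eye genes, and its cause was not tested.

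Null-sorted Erythroid cells without a tdTomato UMI held Hesx1 too, in 60 of 180 cells of null A (33.3%) and 8 of 82 of null B (9.76%). These cells also had the low level of Csf2rb seen in tdTomato+ cells. Csf2rb, chosen after its values were seen, encodes the common beta chain of the interleukin 3 and GM-CSF receptors. It was 76.5 and 76.6 CPM in WT, 3.31 and 0.489 CPM in null cells with tdTomato, and 4.11 and 1.68 CPM in those without. Hesx1 UMIs were not found in 35 EMP (erythro-myeloid progenitor) or 40 megakaryocyte progenitor cells with tdTomato of null A, which allows a share of cells with a UMI of up to 8.57% and 7.5% (3 cells of the total, not the exact interval used above) and sets no limit on cells that express the gene. In the same library 1 of 19 MEP cells held 1 Hesx1 UMI, and at E9.5 EMP cells with tdTomato held one in 3 of 68, 0 of 8, 1 of 14 and 1 of 19 cells of null A to D. WT cells of these types were alike in holding few, with 1 of 8 MEP cells of E8.5 WT A and 1 of 48, 0 of 30, 1 of 22 and 1 of 50 EMP cells of E9.5 WT A to D.

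At E7.5 few blood cells held a Hesx1 UMI in either genotype. Erythroid cells held one in 1 of 10 with and 0 of 7 without tdTomato in null A, and in 1 of 4 and 0 of 1 in WT A and WT B. Blood progenitors held one in 3 of 140 and 0 of 15 null cells with tdTomato, and in 0 of 40 and 1 of 67 WT cells. These Erythroid cells were too few to compare with E8.5. At E9.5 the erythroid picture differed from that at E8.5. WT libraries gave 0.199, 0, 0 and 9.40 CPM, with 35 UMIs in 25 of 135 cells of WT D (18.5%, 95% exact interval 12.4 to 26.1) and 1 UMI in 1 of 164 cells of WT A. WT D was also the WT library with the most tdTomato+ singlets and shared barcodes with WT C. These 135 cells lack a tdTomato UMI by selection, since WT cells with one were left out, in this type 1 cell of WT D. Lack of a UMI does not tell origin here, as 180 and 82 null-sorted Erythroid cells of E8.5 null A and null B lacked one too. Their Stat3 was 18.5 CPM, against 13.7 to 24.5 CPM in WT A to C and 5.77 and 2.19 CPM in the E8.5 null libraries. Csf2rb was 30.9 CPM, against 24.5 to 52.7 CPM and 3.54 and 1.19 CPM. The part of tdTomato+ cells or of shared barcodes in the Hesx1 value of WT D was not tested. The null libraries held only 9, 2, 2 and 6 Erythroid cells, since this type was fewer at E9.5 in null libraries (3.11% of WT and 0.202% of null cells, log2 fold change -4.02, SE 0.56, edgeR adjusted p = 1.37e-05), so null Hesx1 could not be read there.

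**Figure D5:**
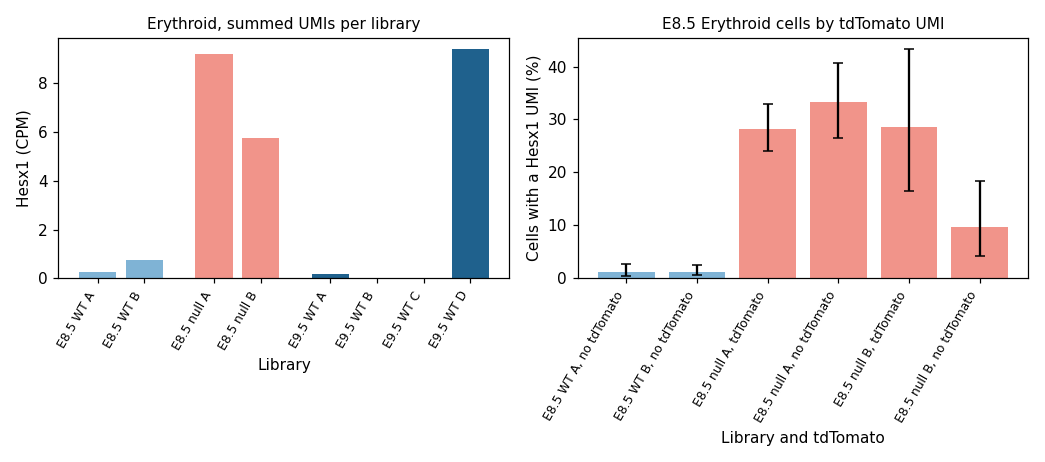
Left, Hesx1 CPM in Erythroid cells of each library with more than 15 such cells. Right, share of E8.5 Erythroid cells with a Hesx1 UMI by library and tdTomato UMI, with 95% exact binomial intervals. Both E8.5 null libraries and E9.5 WT D stand above the remaining libraries on the left, and null cells with tdTomato reach 28.3% and 28.6% on the right against 1.17% and 1.29% in WT.

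No gene around Hesx1 was called. Of the neighbours within 500000 bases, 0 were called in 48, 134 and 256 tests at the 3 stages in order, with 1, 4 and 7 at an unadjusted p under 0.05 (4.06%, 4.32% and 6.26% over all genes), and DESeq2 called none. Of these, 1, 3 and 5 were lower in null cells. In E8.5 Erythroid cells Appl1, the next gene upstream, was 24.96 and 25.13 CPM in WT and 23.3 and 19.1 CPM in null cells (-0.25, SE 0.19, edgeR adjusted p = 0.841). Il17rd, the next gene downstream and a feedback antagonist of FGF signalling, was 0.739 and 1.35 CPM in WT and 0.203 and 0.199 CPM in null cells (-2.28, SE 0.63, adjusted p = 0.340). Il17rd rested on few UMIs, 14 and 22 in WT and 5 and 1 in null cells. It lay below WT without overlap, as did 18.3% of all E8.5 tests, and did not pass.

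Hesx1 was also read in foregut endoderm and placodal ectoderm. In E8.5 Thyroid primordium it was 0 and 5.89 CPM in WT and 24.5 and 57.2 CPM in null cells, and did not pass the filter. This type made up 0.632% and 0.635% of E8.5 WT cells and 1.94% and 1.61% of null cells (log2 fold change 1.49, edgeR unadjusted p = 0.0108, adjusted p = 0.490). Otx2 there averaged 41.8 CPM in WT and 90.9 CPM in null cells (1.05, SE 0.33, edgeR adjusted p = 0.770). Six3 averaged 13.4 and 32.0 CPM (1.18, SE 0.59, edgeR adjusted p = 0.993). Null lay above WT without overlap for both, as in 14.8% of all E8.5 tests, and neither passed. At E9.5 Hesx1 in the libraries with more than 15 cells was 6.02, 2.59 and 11.9 CPM in WT and 21.1 and 21.4 CPM in null cells (fitted log2 fold change 1.49, SE 0.53, a description). Null lay above WT here, as for 9.71% of the genes tested in this type. The null UMIs came from few cells, 20 UMIs in 4 of 39 cells and 19 UMIs in 3 of 26. Six6 in the same E9.5 libraries was 12.0, 5.18 and 7.46 CPM in WT and 24.3 and 64.3 CPM in null cells (2.39, SE 0.48, edgeR adjusted p = 0.136). It was called with no filter on low counts (2.41) and without null A (2.93). Otx2 was 10.04, 2.59 and 11.9 CPM in WT and 19.03 and 32.7 CPM in null cells (1.54, SE 0.48, adjusted p = 0.859). Pax6 was 14.1, 38.9 and 22.4 CPM in WT and 10.6 and 4.51 CPM in null cells (-1.61, SE 0.54, adjusted p = 0.880). Marker sums of other tissues also moved with genotype in Thyroid primordium. Forebrain and eye markers, which include Nkx2-1, a thyroid gene too, summed to 47.2 to 64.1 CPM in WT and 81.8 to 104 CPM in null libraries at E8.5 but overlapped at E9.5. Hindbrain markers summed to 29.5 to 51.9 CPM in WT and 5.45 to 27.2 CPM in null libraries at E8.5, and erythroid markers to 660.1 to 757 CPM and 243 to 622 CPM. Yolk sac endoderm markers summed to 7.77 to 16.4 CPM in WT and 34.98 to 43.3 CPM in null libraries at E9.5, neural crest and mesenchyme markers to 48.2 to 72.6 CPM and 17.2 to 40.2 CPM, and erythroid markers to 98.5 to 402 CPM and 5.64 to 20.6 CPM. The part of these sums and of the cell numbers in the values of Hesx1, Otx2, Six3, Six6 and Pax6 was not tested.

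Placodal ectoderm, the origin of the pituitary, lens and other sensory placodes, held Hesx1 in few cells. At E8.5 it was 2.06 and 14.5 CPM in WT and 16.2 and 59.9 CPM in null libraries, of 31, 48, 42 and 15 cells. At E9.5 the WT libraries were at 0, 0, 2.01 and 1.11 CPM, and the null libraries at 6.99, 83.2, 0 and 118 CPM. The null UMIs at E9.5 were 17, 62, 0 and 31, in 5, 5, 0 and 1 cells, so that a handful of cells set each value and the null libraries spanned the WT range. Six6 in this type at E9.5 was 18.4 and 46.6 CPM in the 2 WT libraries with more than 15 cells and 63.3 and 160 CPM in the 2 such null libraries (1.58, SE 0.95, edgeR adjusted p = 0.971), and was called without null A (2.295). Marker sums of other tissues moved with genotype here too. At E8.5 erythroid markers summed to 685 to 789 CPM in WT and 217 to 584 CPM in null libraries, yolk sac endoderm markers to 6.06 to 6.18 and 9.98 to 14.5 CPM, endothelial markers to 1.21 to 8.24 and 0 to 0.851 CPM, and surface ectoderm markers to 921 to 990.1 and 990.1 to 1029 CPM. At E9.5 erythroid markers summed to 84.6 to 382 CPM in WT and 4.03 to 13.2 CPM in null libraries. Their part in the values of Hesx1 and Six6 was not tested.

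Pharyngeal endoderm at E9.5 held the member nearest to a call. Six6 was 17.1, 29.2 and 28.8 CPM in WT A, B and D and 12.5, 11.3, 11.4 and 3.78 CPM in the 4 null libraries, with WT C left out for its 14 cells. All null libraries were below the 3 WT libraries fitted, as for 4.75% of all tests at this stage (-1.25, SE 0.27, edgeR adjusted p = 0.0519). DESeq2 called it (-1.29), as did the fits without null cells lacking tdTomato (-1.30), without the filter on low counts (-1.24) and without WT A (-1.47). WT C itself held 5.30 CPM, within the null range. Six3 (-0.85, adjusted p = 0.573), Pax6 (-0.90, adjusted p = 0.530) and Otx2 (-0.67, adjusted p = 0.633) were also lower in null cells of this type and did not pass. At E8.5, where Six6 did not pass the filter, it was 6.06 and 1.35 CPM in WT and 3.02 and 0 CPM in null cells.

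At E7.5 Hesx1 in Ectoderm was 51.3 and 5.35 CPM in WT and 27.4 and 15.3 CPM in null cells, a fitted log2 fold change of -0.10 (SE 1.43) that was 2.11 without WT A and -1.06 without WT B. In Gut tube it was 31.7 and 34.2 CPM in WT and 34.0 CPM in null A, while null B held only 9 such cells at 84.8 CPM. In Ectoderm the 2 WT libraries thus lay on either side of the null libraries, and size class and library cannot be told apart. None of 6 further members tested there was called. Six6 and Vax1 passed the filter in no E7.5 type.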

How the data were processed

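UMI counts per gene and cell were used as deposited by the authors, who counted 10x Genomics 3' v3 reads with Cell Ranger on mm10 with the GRCm38.p5 annotation and the tdTomato sequence added. The authors kept cells by UMIs, genes, and the percent of UMIs from mitochondrial and ribosomal genes. They called doublets with scds and took cell types from the nearest cells of a gastrulation atlas after batch correction. Of the values behind this filter, total UMIs and the mitochondrial percent were in deposited columns read here. Of 41832 cells, 3395 doublet calls (8.12%) and 596 WT-sorted singlets with a tdTomato UMI were left out, which leaves 37841 cells of 87 types at 10003 to 99964 UMIs per cell.

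UMIs were summed per library and cell type. CPM divides a member's sum by all UMIs of those cells and multiplies by 1000000. A type was fitted, over all genes, where 2 or more libraries of both groups held over 15 of its cells, with edgeR 4.0.16 in R 4.3.3 (filterByExpr, TMM, robust quasi-likelihood), leaving out predicted, mitochondrial, ribosomal, haemoglobin and Y-linked or X-inactivation genes. Log2 fold changes are from this fit, and the SE is the fold change divided by the square root of the F statistic. Benjamini-Hochberg adjustment ran over all genes of the type. The scripts were tested on simulated data. DESeq2 1.42.0 was an alternative, as were no filter on low counts, thinning to 10000 UMIs, more than 50 cells, tdTomato choices and leaving out each library. Intervals and limits cover counting error only.

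The text names the 9 members, called companion genes up to 4 a list, the Hesx1 neighbour on each side, and the 5 genes most like Hesx1. Csf2rb, Lhx3, Pitx1 and Nkx2-4, outside this rule, were chosen after their values were seen, as were the companion genes called only under an alternative. The members and lists were chosen with earlier results of these data known. Some genes of these lists are not reported here. Every library column in the files was matched to a group.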

Additional observations from a re-analysis of the deposited data

Results flagged for a closer look

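In 54 sets of 4 E9.5 libraries, the gap of the farthest library to its nearest neighbour was divided by the range and compared with Dixon's critical value for 4 samples, 0.829. About 1 in 20 sets of independent normal values pass by chance, and 5 passed here. That rate need not hold for these sets, which include zeros and low counts and share libraries. Hesx1 in WT Erythroid cells had a ratio of 0.9788, from 9.40 CPM in WT D against 0, 0 and 0.199 CPM. Fezf1 in null Ventral forebrain progenitors had 0.887, from 19.98 CPM in null D against 26.4 to 27.2 CPM. Six6 in null Pharyngeal endoderm had 0.864, from 3.78 CPM in null D against 11.3 to 12.5 CPM. Rax passed in WT cells of 2 types, with opposite signs. In Ventral forebrain progenitors WT D was low, at 96.8 CPM against 132 to 139 CPM (0.8391), and in Optic vesicle WT A was high, at 79.3 CPM against 45.9 to 51.5 CPM (0.8321). Of 28 pairs of a member and a type tested at both E8.5 and E9.5, 0 had null libraries apart from WT in opposite directions, a comparison that was not tested.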

How the results depend on the processing

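No paired analysis was possible because the library names in the cell table could not be tied to the replicate numbers of the labels. The count of null against WT calls among the 8 members at E9.5 was 0 and became 1 with DESeq2, 6 with no filter on low counts (of 286 tests, Six6, Lhx2, Otx2 and Rax) and 1 with null cells lacking tdTomato left out. Leaving out 1 library gave 0 to 1 calls at E7.5 (Fezf1 in Ectoderm, -3.08, without WT B), 0 to 1 at E8.5 (Six6 in Optic vesicle, -1.11, without null A) and 0 to 2 at E9.5 (most without null A or without WT D). Companion genes went from 0 to 2 calls at E8.5 (Shh and Nkx2-4) and to 1 at E9.5 (Mitf) with no filter, and ranged from 0 to 4 at E8.5 when 1 library was left out, with 4 without null A (among them Dkk1 and Fgf15, higher, and Fgf17, lower). The WT stage calls among members, 2 in all, ranged from 1 without either E8.5 library to 3 without E9.5 WT A. Without 1 library the Hesx1 null over WT log2 fold change ranged from -1.06 to 2.11 in E7.5 Ectoderm, from 3.40 to 4.70 in E8.5 Erythroid and from 1.20 to 2.24 in E9.5 Thyroid primordium. Calls of the neighbours of Hesx1, of forebrain and eye cell numbers and of the stage interaction stayed at 0 under each alternative run. The cause of these shifts was not tested. A lone library left in a group is assumed to vary like the others. Few cells set the limits, since E8.5 Ventral forebrain progenitors and Thyroid primordium held 10 to 74 cells a library and E9.5 null Erythroid 2 to 9.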

Other observations

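In E9.5 Placodal ectoderm the libraries with Hesx1 also held other genes of the pituitary anlage, a set of genes chosen after the values were seen. Lhx3, a LIM homeodomain factor of Rathke's pouch, was 4.52, 24.2, 0 and 64.6 CPM in null A to D, against 0, 0, 2.01 and 0 CPM in WT A to D. Pitx1, a homeodomain factor of the same tissue, was 312, 349, 74.7 and 247 CPM in null and 146, 216, 113 and 171 CPM in WT libraries. The null libraries held 73, 17, 6 and 7 cells of this type and the WT libraries 25, 13, 11 and 29.

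Over 87 WT means of a type at a stage, the genes most like Hesx1 by Pearson correlation of log2(CPM + 1) were Eras (0.772), an embryonic stem cell RAS gene, Fzd5 (0.731), a WNT receptor of the eye field, Ermn (0.717), Foxd4 (0.699) and Fam178b (0.694). The other members were less like it, with Six3 (0.501) at rank 100 and Otx2 (0.498) at rank 102 of 15882 genes, followed by Rax (0.336), Fezf1 (0.278), Six6 (0.216), Vax1 (0.138), Lhx2 (0.0553) and Pax6 (-0.049). Six3 and Six6 were each other's nearest gene (0.823). The means share libraries, so these are descriptions.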
